A study of Homo sapiens with 10 samples.

Results

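RNA made under AZ-5576, an inhibitor of the kinase CDK9, was compared with RNA made under actinomycin D, which binds DNA, to list the transcripts that still took up label with CDK9 inhibited and did not with the template blocked. The comparison used the 2 AZ-5576 and the 2 actinomycin D libraries of a series of 10. The 2 DMSO libraries served as the level without drug, and all 59204 human genes listed were covered. The other libraries, 2 with 1 µM JQ1 and 2 with 1 µM A-485, entered only the gene filter and the shared spread of the tests. K562, a human line from a chronic myeloid leukemia with red cell features, was held for 2 hours in 1 µM AZ-5576, in 1 µg/mL actinomycin D or in DMSO. All 3 groups received 100 µM 4-thiouridine in the last 1 hour, and no genotype differed between them. The readout was SLAM-seq, in which 4-thiouridine in new RNA is changed chemically so that sequencing reads some T positions as C. Labelled counts are the reads with such conversions, and total counts are all reads. The libraries were read from poly(A) tails and A-rich stretches by a 3′ kit. Drosophila S2 RNA was added at 5% to the purified RNA, and each library was scaled to its Drosophila counts, so that every level is relative to the RNA recovered. Fewer cells and less RNA per cell cannot be told apart on this scale. The labels do not say whether the libraries of a group came from separate cultures, so p-values measure the spread between libraries, which may be technical.

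CDK9 with its cyclin partner forms P-TEFb, which phosphorylates RNA polymerase II and its pausing factors and lets polymerases leave the promoter-proximal pause. Without that step new polymerases stay near the promoter, while polymerases already in the gene body can travel on. RNA polymerases I and III and the single-subunit mitochondrial polymerase POLRMT do not use P-TEFb for release. Actinomycin D intercalates at GpC steps of DNA, blocks elongation on any template that it reaches, and is classically known for its strong effect on ribosomal RNA synthesis.

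Label left under AZ-5576 and absent or nearly so under actinomycin D is described for mitochondrial transcripts, a few small RNAs and mRNAs of very long genes in particular. The ends of the mitochondrial transcripts are shown because a conversion can be read only at a T of the sense strand. The last 60 bases of 4 mitochondrial transcripts, from GENCODE release 29 on GRCh38, are given 5′ to 3′ with each T in capitals. MT-ND6 lies on the minus strand at chrM:14149-14208 for the stretch shown, and the others on the plus strand at chrM:15828-15887, chrM:7386-7445 and chrM:4203-4262.
MT-ND6: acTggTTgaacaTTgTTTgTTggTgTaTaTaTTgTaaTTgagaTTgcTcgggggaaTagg
MT-CYB: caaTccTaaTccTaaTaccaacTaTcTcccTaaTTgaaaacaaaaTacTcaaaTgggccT
MT-CO1: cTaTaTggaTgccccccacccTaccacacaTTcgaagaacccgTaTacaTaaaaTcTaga
MT-ND1: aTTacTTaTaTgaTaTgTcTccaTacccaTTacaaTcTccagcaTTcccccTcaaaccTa
These ends hold 23 T in MT-ND6, 15 in MT-CYB, 12 in MT-CO1 and 19 in MT-ND1.

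Among small RNAs, 1 transcript is shown whole with runs of at least 4 A in capitals, because the kit primes on A-rich sequence. A gene of the Y RNA family, listed as RF00019 and known to derive from RNA polymerase III transcripts, spans chr3:110727021-110727121 on the plus strand, with 1 run of 5 A at its end and 29 T.
RF00019: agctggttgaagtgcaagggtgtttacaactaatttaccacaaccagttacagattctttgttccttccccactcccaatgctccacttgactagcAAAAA

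Label was far higher under AZ-5576 than under actinomycin D, and no tested gene was called lower. The libraries held 53503 and 62513 labelled counts under AZ-5576, 1410 and 1614 under actinomycin D and 448401 and 434411 in DMSO. Their spike-in totals ran from 1817677 to 2176968 counts. Per 1000 spike-in counts the labelled level was 29.8 ± 0.765 under AZ-5576, 0.721 ± 0.0291 under actinomycin D and 238 ± 1.72 in DMSO (SD, n = 2 each), and the 3 groups did not overlap. Labelled reads made up 0.356% ± 0.00434 of human counts under AZ-5576, 0.00906% ± 6.8e-05 under actinomycin D and 2.78% ± 0.165 in DMSO. No library without 4-thiouridine was used here, so part of the actinomycin D counts may be conversions that are not label. Total human counts ran from 14916671 to 17918971 in these 6 libraries, and total RNA per spike-in count stood at 97.7% of DMSO under AZ-5576 and at 92.7% under actinomycin D.

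Gene by gene, 1639 of 7996 tested genes were higher in labelled RNA under AZ-5576 (20.5% of those tested) and 0 were lower (0.00%; edgeR quasi-likelihood test over all 10 libraries, Benjamini-Hochberg adjusted p under 0.05). DESeq2 gave 1529 higher and 0 lower, and at an unadjusted p under 0.05 edgeR gave 2297 higher and 3 lower. The labelled share of a gene's reads was higher for 1321 of 7996 genes (16.5%) and lower for 0 (2 at an unadjusted p under 0.05, 0 with DESeq2). Counts limit this test, since 1457 of the 1639 genes had 0 labelled counts in both actinomycin D libraries and 3730 tested genes had 0 in both AZ-5576 libraries. Both AZ-5576 libraries lay above both actinomycin D libraries in 2144 of the 7996 genes (26.8%) and below both in 7 (0.0875%). Of 416 genes with at least 10 labelled counts in each AZ-5576 library, 407 were called. AZ-5576 counts chose these genes, so a high share of calls follows from the choice. Leaving out either actinomycin D library lowered the count of higher genes. TMM library sizes, which shift the scale between the 2 drugs by -2.0 in log2, gave 361 higher and 13 lower.

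By class of RNA, the AZ-5576 label was unlike the DMSO label in make-up. Mitochondrial genes, taken with their nuclear copies because short reads can be assigned to either, held 55.1% of all label under AZ-5576, 10.9% under actinomycin D and 9.31% in DMSO. Protein-coding nuclear genes kept 5.76% of their DMSO label under AZ-5576 and 0.177% under actinomycin D, and long noncoding RNA genes kept 6.79% and 0.178%. RNA polymerase III transcripts kept 48.5% under AZ-5576 and 0.702% under actinomycin D, from 369 and 390 counts under AZ-5576, 4 and 8 under actinomycin D and 848 and 652 in DMSO. BCYRN1 gave 540 of the 759 counts under AZ-5576, and without it the class kept 29.6% under AZ-5576 and 1.49% under actinomycin D. Small nuclear, small nucleolar and Cajal body RNAs kept 40.1% under AZ-5576 and 0.936% under actinomycin D, from 151 and 130 counts under AZ-5576, 5 and 2 under actinomycin D and 370 and 306 in DMSO. Histone genes were low in both drugs, with 14 and 13 labelled counts under AZ-5576, 5 and 12 under actinomycin D and 292 and 284 in DMSO. The percentages of the 2 drugs share the same DMSO libraries.

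**Figure D1:**
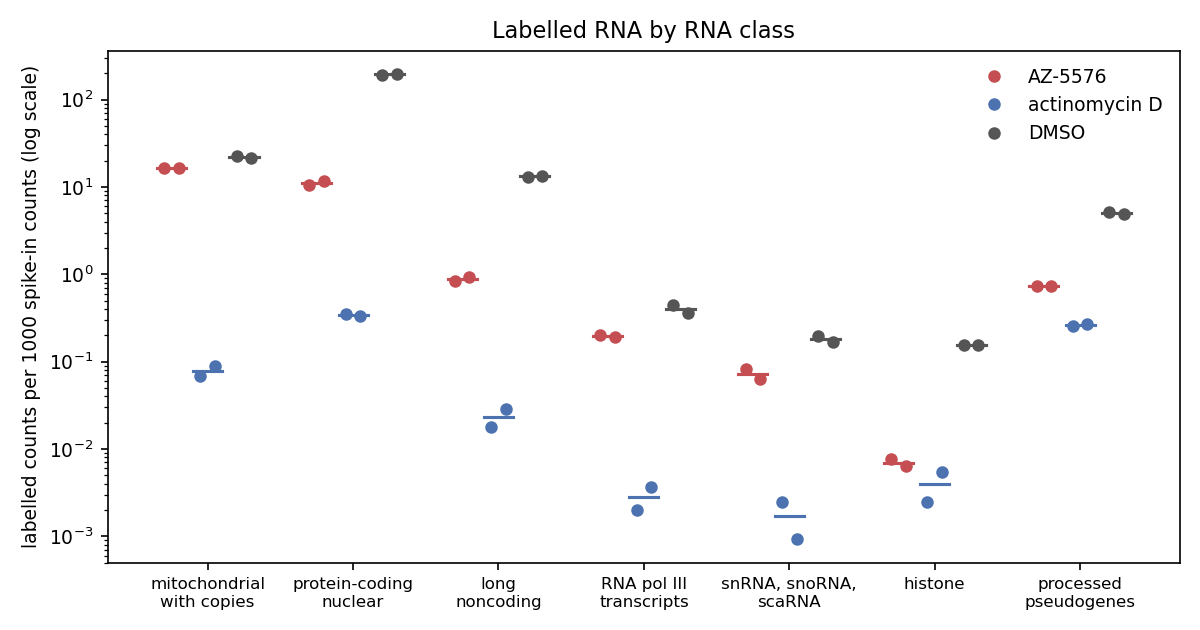
Labelled counts per 1000 spike-in counts (log scale) by class of RNA, with each library as a point and the mean of 2 as a bar. The AZ-5576 points of mitochondrial RNA stand close to DMSO at 74.5% of its level, while those of protein-coding nuclear genes stand at 5.76%, and the actinomycin D points lie lowest in every class shown.

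What label remained under actinomycin D was spread thinly, apart from a few genes. Its 3024 labelled counts over both libraries fell in 868 genes, of which 165 had counts in both libraries and 42 had at least 10 counts. The top 2 genes held 22.1% of them and the top 10 held 34.8%. RPL31P49, a processed pseudogene of a ribosomal protein gene, had 156 and 191 labelled counts under AZ-5576, 144 and 220 under actinomycin D and 196 and 192 in DMSO. In that gene the labelled reads were most of all reads under both drugs, 156 of 176 and 191 of 229 under AZ-5576 and 144 of 165 and 220 of 245 under actinomycin D, against 196 of 365 and 192 of 357 in DMSO. RPL38, a protein of the large ribosomal subunit, had 116 and 165 labelled counts under AZ-5576, 142 and 163 under actinomycin D and 345 and 360 in DMSO. Neither gene passed the test between the drugs (edgeR adjusted p = 1.00 for both). Processed pseudogenes held 36.4% of the label under actinomycin D, 2.46% under AZ-5576 and 2.12% in DMSO, and pseudogene reads cannot be told apart with certainty from those of their parent genes.

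Mitochondrial RNA kept most of its DMSO label under AZ-5576 and hardly any under actinomycin D. The class of 393 mitochondrial genes and nuclear copies had 30302 and 33678 labelled counts under AZ-5576, 137 and 192 under actinomycin D and 43415 and 38745 in DMSO. Its labelled level was 16.5 ± 0.16 per 1000 spike-in counts under AZ-5576, 0.0781 ± 0.0143 under actinomycin D and 22.1 ± 1.12 in DMSO (SD, n = 2), which is 74.5% of DMSO under AZ-5576 and 0.353% under actinomycin D. Of 34 members tested, 33 were called higher under AZ-5576, beside 20.5% of all tested genes. With the copies counted as nuclear genes, the mitochondrial genes alone stood at 77.4% of DMSO under AZ-5576 and at 0.502% under actinomycin D.

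The mRNAs of the heavy strand, which is read as one long precursor and cut into mRNAs, tRNAs and rRNAs, were higher in labelled RNA in 9 of the 10 tested. Over all tested genes 20.5% were called higher. MT-ND2, a subunit of respiratory complex I, had 5912 and 7080 labelled counts under AZ-5576, 4 and 6 under actinomycin D and 7079 and 7480 in DMSO. MT-CYB, the cytochrome b of complex III, had 3387 and 3810 under AZ-5576, 0 and 1 under actinomycin D and 4861 and 4812 in DMSO. Both mRNAs thus kept high label in each AZ-5576 library and nearly none in either actinomycin D library. MT-ND1, another complex I subunit, had 828 and 835 under AZ-5576, 6 and 4 under actinomycin D and 1191 and 922 in DMSO. MT-CO1, the catalytic subunit of cytochrome c oxidase, had 85 and 114 under AZ-5576, 1 and 0 under actinomycin D and 108 and 94 in DMSO. MT-ND6, the complex I subunit that is the protein read from the light strand, had only 9 and 10 labelled counts under AZ-5576, 0 and 0 under actinomycin D and 25 and 35 in DMSO. It was at least 6.83-fold higher under AZ-5576, by a limit of 3 counts over the actinomycin D group (edgeR adjusted p = 0.0003). The exception was the gene row of MT-ATP8, a subunit of ATP synthase. It had 4 and 2 labelled counts under AZ-5576, 0 and 0 under actinomycin D and 16 and 14 in DMSO. Summed with its nuclear copies, it had 5839 and 6464 under AZ-5576, 11 and 26 under actinomycin D and 8848 and 8069 in DMSO. That sum was 69.5% of DMSO under AZ-5576 and 0.191% under actinomycin D, so the exception rests on how reads were assigned.

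Total RNA of several mitochondrial mRNAs had run down after 2 hours of actinomycin D and not after AZ-5576. MT-ND6 had 861 and 805 total counts under AZ-5576, 90 and 122 under actinomycin D and 765 and 647 in DMSO, and was higher under AZ-5576 by 3.09 on the log2 scale (SE 0.17; edgeR adjusted p = 4.3e-17). MT-ND1 had 3975 and 4322 under AZ-5576, 564 and 597 under actinomycin D and 4035 and 3479 in DMSO, a log2 difference of 2.95 (SE 0.11; edgeR adjusted p = 4.3e-22). In both genes the actinomycin D libraries lay far below the AZ-5576 and DMSO libraries, which overlapped. MT-CYB had 67379 and 77005 under AZ-5576, 27105 and 28215 under actinomycin D and 63578 and 66044 in DMSO, a log2 difference of 1.49 (SE 0.09). MT-ND2 had 199972 and 255801 under AZ-5576, 98612 and 114923 under actinomycin D and 161723 and 188295 in DMSO, a log2 difference of 1.20 (SE 0.12). MT-ND3, a small complex I subunit, was higher by 1.61 on the log2 scale (SE 0.10). For comparison, 292 of all 14572 genes tested in total RNA were higher under AZ-5576 (2.00%) and 54 were lower (0.371%).

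Not every mitochondrial row moved that way. Among the 11 heavy strand mRNAs listed, 6 rose, 1 fell and the others, MT-ATP6, MT-ND4, MT-ND5 and MT-CO2, did not pass the test. Of the 6, the call of MT-ND4L was lost on leaving out AZ-5576 replicate 2 (log2 difference 0.38, edgeR adjusted p = 0.32), actinomycin D replicate 1 (0.45, adjusted p = 0.20) or replicate 2 (0.50, adjusted p = 0.11). The one that fell was MT-CO1, with 1029 and 1176 total counts under AZ-5576, 1682 and 1973 under actinomycin D and 887 and 814 in DMSO (log2 difference -0.62, SE 0.12; edgeR adjusted p = 0.00077). MT-TF, the phenylalanine tRNA at the start of the heavy strand precursor, also fell, with 215583 and 250386 under AZ-5576, 368493 and 431863 under actinomycin D and 207552 and 194415 in DMSO (log2 difference -0.67, SE 0.09). Both were thus above DMSO in the actinomycin D libraries, although MT-TF had 2184 and 2467 labelled counts under AZ-5576, only 78 and 105 under actinomycin D and 3282 and 2888 in DMSO. The size of the MT-ND1 difference also depends on the copies, since the gene summed with them differed by only 0.84 on the log2 scale. For MT-CO1 the direction rests on how reads were assigned between the gene and its copies: the gene row stood at 124% of DMSO under AZ-5576 and 190% under actinomycin D, and the gene summed with its nuclear copies at 105% and 76.6%.

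Summed over gene and copies, the 12 protein-coding loci kept between 103% and 120% of their DMSO total RNA under AZ-5576. Under actinomycin D the same sums ran from 15.2% for MT-ND6 to 119% for MT-ND5. MT-CO2 stood at 32.1%, MT-ND3 at 35.6%, MT-CYB at 37.8%, MT-ND2 at 57.2% and MT-ND1 at 62.7%, while MT-ATP6 stood at 83.4% and MT-ND4 at 101%. MT-CO3 and the mitochondrial rRNAs were not analysed here. Strand use in the counting is not given in the sources used here, so reads of a light strand RNA and of the heavy strand RNA opposite it may not be separated.

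**Figure D2:**
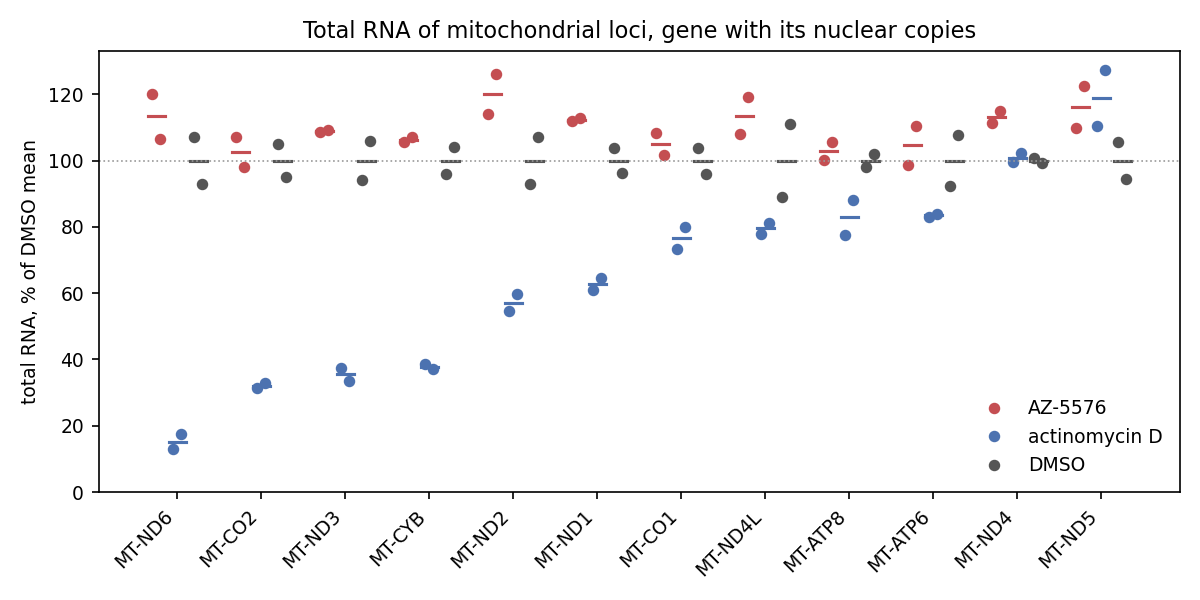
Total RNA of 12 mitochondrial loci, each gene summed with its nuclear copies, as a percent of the DMSO mean, with 2 libraries per group as points and their mean as a bar. AZ-5576 points sit near or above 100 at every locus, while actinomycin D means climb from 15.2% at MT-ND6 to 119% at MT-ND5.

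Among nuclear genes, the ones that kept most label under AZ-5576 were long. Of the 12 called genes with the highest percent of DMSO label (at least 50 labelled counts on average in DMSO, libraries of the 2 drugs not overlapping), 11 were protein-coding genes between 223 and 598 kb from first to last base, and the other was BCYRN1, a neuronal RNA made by RNA polymerase III. CUX1, a homeodomain transcription factor gene of 468 kb at chr7:101815904-102283958 on the plus strand of GRCh38, had 189 and 257 labelled counts under AZ-5576, 0 and 0 under actinomycin D and 167 and 176 in DMSO. That was 123% of DMSO and at least 160-fold above actinomycin D. NFIA, a CCAAT-binding transcription factor gene of 598 kb at chr1:60865259-61462793, had 108 and 146 under AZ-5576, 0 and 0 under actinomycin D and 126 and 71 in DMSO, at least 91.3-fold above actinomycin D. In CUX1 both AZ-5576 libraries lay above both DMSO libraries per spike-in count, and in NFIA they overlapped.

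Genes of signalling and red cell structure were in the same group. PRKCB, protein kinase C beta, spans 385 kb at chr16:23835946-24220611 and had 271 and 339 labelled counts under AZ-5576, 1 and 1 under actinomycin D and 343 and 318 in DMSO. Its label was 87.9% of DMSO under AZ-5576 and 329 times the actinomycin D level, with an exact Clopper-Pearson 95% interval of 90.6 to 2721 that covers counting error only. ANK1, the ankyrin that ties the red cell membrane to its skeleton, had 185 and 226 under AZ-5576, 1 and 0 under actinomycin D and 204 and 212 in DMSO. TAOK3, a STE20-type kinase, had 144 and 133 under AZ-5576, 1 and 0 under actinomycin D and 180 and 192 in DMSO. TNIK, another STE20-type kinase, had 67 and 54 under AZ-5576, 0 and 0 under actinomycin D and 76 and 74 in DMSO. These 4 genes kept between 71.5% and 94.1% of their DMSO label.

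Chromatin and transcription regulators made up most of the rest. KMT2C, a histone H3 lysine 4 methyltransferase, had 51 and 63 labelled counts under AZ-5576, 0 and 0 under actinomycin D and 87 and 47 in DMSO. JARID2, a subunit that accompanies Polycomb complex PRC2, had 60 and 81 under AZ-5576, 0 and 0 under actinomycin D and 104 and 90 in DMSO. TCF4, a basic helix-loop-helix factor, had 63 and 95 under AZ-5576, 0 and 0 under actinomycin D and 102 and 122 in DMSO. ARID1B, a BAF chromatin remodelling subunit, had 37 and 78 under AZ-5576, 0 and 1 under actinomycin D and 75 and 102 in DMSO. CMIP, an adaptor protein gene, had 149 and 134 under AZ-5576, 0 and 1 under actinomycin D and 255 and 194 in DMSO. In each of them both AZ-5576 libraries were well above both actinomycin D libraries, and the DMSO share kept ran from 60.7% in ARID1B to 81.5% in KMT2C.

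**Figure D3:**
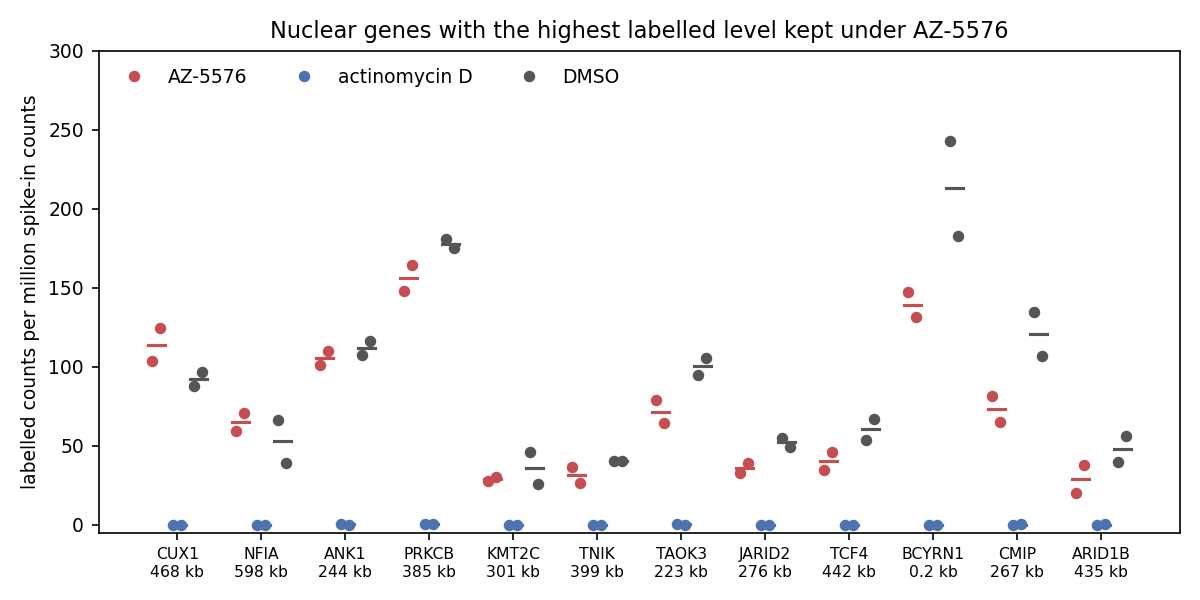
Labelled counts, scaled to spike-in counts, of the 12 called nuclear genes with the highest percent of DMSO label under AZ-5576, each with its length, as points per library with the mean of 2 as a bar. AZ-5576 points reach DMSO in CUX1, NFIA, ANK1 and KMT2C, and the actinomycin D points lie at or near 0 in all 12.

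The same genes were mostly higher in total RNA as well. Of the 12, 10 were called higher, beside 2.00% of all genes tested in total RNA, and ANK1 and PRKCB were not. CUX1 had 1704 and 2066 total counts under AZ-5576, 1146 and 1350 under actinomycin D and 1477 and 1475 in DMSO, a log2 difference of 0.70 (SE 0.11; edgeR adjusted p = 2.2e-05). NFIA rose by 0.75 on the log2 scale (SE 0.11), TNIK by 0.74 (SE 0.14), TCF4 by 0.67 (SE 0.12), KMT2C by 0.58 (SE 0.13), TAOK3 by 0.54 (SE 0.11) and JARID2 by 0.51 (SE 0.11). Labelled reads are part of the total, so the unlabelled remainder was also compared: CUX1 had 1515 and 1809 unlabelled counts under AZ-5576 and 1146 and 1350 under actinomycin D. In all 12 genes the unlabelled level of both AZ-5576 libraries was above that of both actinomycin D libraries, by 1.13 to 1.69 times. Over all genes tested in total RNA this was so in 28.2%. Unlabelled reads can also come from new RNA, through reads without a conversion or RNA made in the drug before 4-thiouridine was added. The unlabelled remainder is thus not independent of the choice by label. The calls of CUX1, NFIA and TCF4 in total RNA were kept on leaving out any one of the 4 libraries. Without AZ-5576 replicate 2 the call was lost for TNIK (edgeR adjusted p = 0.055), TAOK3 (adjusted p = 0.11), JARID2 (adjusted p = 0.19), KMT2C (adjusted p = 0.14) and BCYRN1 (adjusted p = 0.12). Without actinomycin D replicate 1 it was lost for TAOK3 (adjusted p = 0.090), JARID2 (adjusted p = 0.063), KMT2C (adjusted p = 0.21) and BCYRN1 (adjusted p = 0.17), and without AZ-5576 replicate 1 for BCYRN1 (adjusted p = 0.090). For CMIP and ARID1B it was lost on leaving out any of the 4, with an edgeR adjusted p between 0.059 and 0.18 for CMIP and between 0.099 and 0.47 for ARID1B.

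Length was then read over all protein-coding nuclear genes with at least 20 labelled counts per DMSO library on average. Summed label under AZ-5576 was 4.48% of DMSO in 922 genes of up to 10 kb, 3.91% in 2167 genes of 10 to 50 kb and 4.29% in 775 genes of 50 to 100 kb. It was 9.28% in 498 genes of 100 to 200 kb, 30.0% in 150 genes of 200 to 400 kb and 44.7% in 37 genes above 400 kb. The libraries lay close together in the top step, at 42.1% and 47.3%. Under actinomycin D the same sums stayed between 0.0900% and 0.288% of DMSO in all 6 steps. These 6 steps were chosen after the data were seen. With 5 bins of equal size the median percent kept was between 1.15% and 1.46% in the lower 4 bins and 5.15% in the longest. In genes with at least 100 labelled counts per DMSO library the medians were 2.94% in the shortest bin and 3.61% in the longest, so that most of the contrast between the 5 bins was lost. There the longest bin began at 50.6 kb, and by steps of length, an alternative chosen after the data were seen, the sums were 5.26% in 237 genes of up to 10 kb, 9.40% in 43 genes of 100 to 200 kb, 37.7% in 10 genes of 200 to 400 kb and 60.5% in 5 genes above 400 kb. Leaving out 1 library moved the median of the shortest bin to between 0% and 0.459% and that of the longest to between 3.85% and 4.37%. Spearman's rho between length and percent kept was 0.18 across 4549 genes, which are not independent replicates and share the libraries. RUNX1, a blood transcription factor gene of 1217 kb, had 0 labelled counts under AZ-5576, 0 under actinomycin D and 43 and 64 in DMSO.

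Total RNA calls followed the same steps. Among genes of up to 10 kb, 6 were higher in total RNA under AZ-5576 and 13 lower, and among those of 10 to 50 kb, 8 were higher and 9 lower. Of the genes of 100 to 200 kb, 42 were higher and 0 lower, of those of 200 to 400 kb, 21 and 0, and of those above 400 kb, 10 and 0. Spearman's rho between length and the log2 difference in total RNA was 0.47 over the same 4549 genes. The median labelled share in DMSO also differed with length, at 3.47% up to 10 kb, 7.44% at 200 to 400 kb and 6.62% above 400 kb. Whether the calls go with length or with that share was not tested. The 245 genes that kept over 20% of their DMSO label had a median length of 156 kb, and 57 of them were higher in total RNA and 0 lower, beside 2.00% higher and 0.371% lower over all genes tested. The other 4304 genes had a median length of 28.0 kb, and 44 were higher and 25 lower. Labelled reads chose the 245 genes and are part of their total RNA, so the unlabelled counts are given as well: both AZ-5576 libraries lay above both actinomycin D libraries in 176 of the 245 (71.8%) and below both in 0, and in 1185 and 350 of the other 4304. Over all 14572 genes tested in total RNA the unlabelled counts lay above in 28.2% and below in 9.69%. Unlabelled reads can include RNA made under the drug, so choosing genes by label can also choose on these counts. The gene tables do not say where in a gene the reads lay, so reads at the end of the mRNA and reads from A-rich stretches inside introns are not separated.

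**Figure D4:**
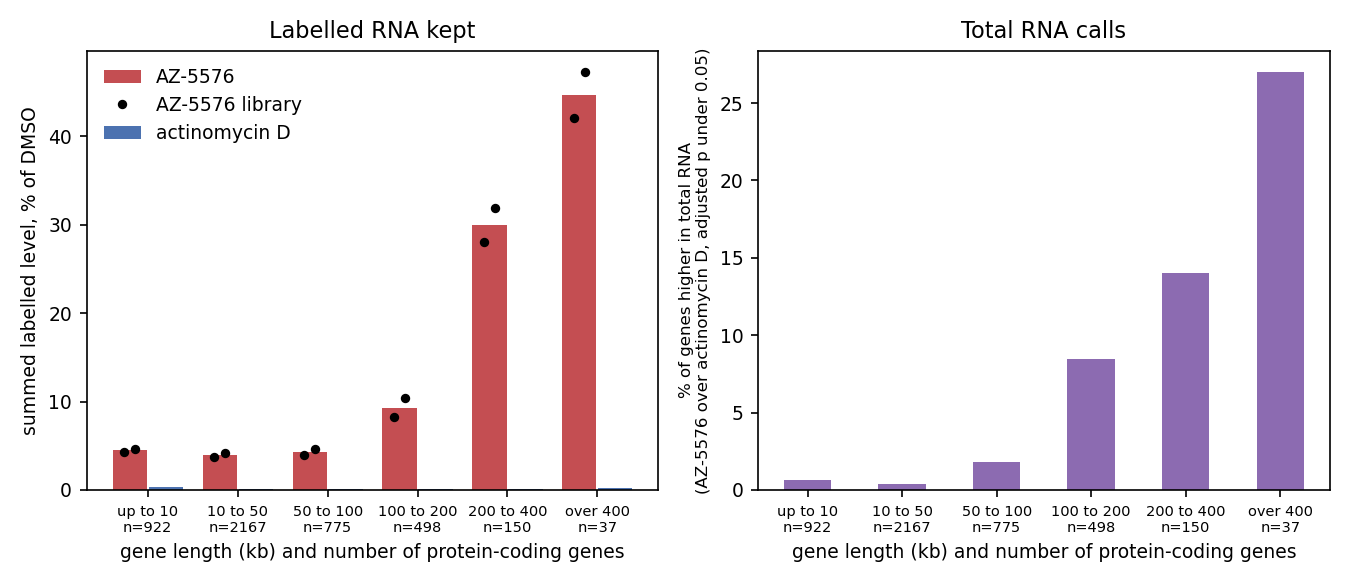
Left, summed labelled level as a percent of DMSO in 6 steps of gene length, for AZ-5576 (bars, with its 2 libraries as points) and actinomycin D (bars). Right, percent of the same genes called higher in total RNA under AZ-5576 than under actinomycin D. AZ-5576 bars rise above 100 kb to 44.7% in the longest step, and actinomycin D bars stay under 0.3% throughout.

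Short genes among the 10 genes with the highest labelled level under AZ-5576 were TUBB, SNHG1, SNHG3 and BCYRN1. TUBB, a beta tubulin with many pseudogenes, had 122 and 130 labelled counts under AZ-5576, 0 and 1 under actinomycin D and 667 and 564 in DMSO. SNHG1, a host transcript whose introns hold small nucleolar RNAs, had 207 and 224 under AZ-5576, 1 and 0 under actinomycin D and 1369 and 1468 in DMSO. SNHG3, another such host, had 185 and 227 under AZ-5576, 1 and 0 under actinomycin D and 3357 and 3098 in DMSO. TUBB, SNHG1 and SNHG3 kept 19.6%, 14.5% and 6.08% of a high DMSO level, and none of them passed the test between the drugs in total RNA (edgeR adjusted p = 0.89, 0.70 and 0.79).

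BCYRN1 was the most abundant labelled transcript of RNA polymerase III. It had 269 and 271 labelled counts under AZ-5576, 0 and 0 under actinomycin D and 461 and 332 in DMSO, which is 65.5% of DMSO and at least 194-fold above actinomycin D. Its total counts were 11643 and 13215 under AZ-5576, 6681 and 8870 under actinomycin D and 12745 and 9600 in DMSO, a log2 difference of 0.79 (SE 0.16; edgeR adjusted p = 0.021). The AZ-5576 and DMSO libraries overlapped and the actinomycin D libraries lay below both, but this call was lost on leaving out any library other than actinomycin D replicate 2, with the replicate block (log2 difference 0.78, edgeR adjusted p = 0.23) and with TMM library sizes (0.69, adjusted p = 0.41). Related copies exist in the genome, so reads of such copies could be counted in BCYRN1. Total RNA of the class of RNA polymerase III transcripts stood at 104% of DMSO under AZ-5576 and at 59.9% under actinomycin D, and BCYRN1 held most of it. Without BCYRN1 the class stood at 79.6% under AZ-5576 and at 43.2% under actinomycin D.

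A few small RNAs and a pseudogene had about as much RNA under AZ-5576 as in DMSO, or more. RF00019, the Y RNA family gene whose sequence is given above, had 8 and 37 labelled counts under AZ-5576, 0 and 0 under actinomycin D and 8 and 2 in DMSO. Its total counts were 107 and 142 under AZ-5576, 12 and 22 under actinomycin D and 35 and 16 in DMSO, a log2 difference of 2.97 (SE 0.37; edgeR adjusted p = 6.4e-07). Both AZ-5576 libraries exceeded all others in total RNA, while in labelled RNA 1 of them lay level with DMSO replicate 1. RNU5B-1, a U5 spliceosomal RNA gene, had 14 and 36 total counts under AZ-5576, 2 and 3 under actinomycin D and 6 and 11 in DMSO, and its call was lost without AZ-5576 replicate 2 (edgeR adjusted p = 0.33), actinomycin D replicate 1 (adjusted p = 0.20) or replicate 2 (adjusted p = 0.12). The following 4 were chosen after their values were seen. RNU6-918P, annotated as a pseudogene of the U6 spliceosomal RNA, had 36 and 14 labelled counts under AZ-5576, 0 and 0 under actinomycin D and 0 and 0 in DMSO. RF00003, annotated to the family of the U1 spliceosomal RNA, had 28 and 20 under AZ-5576, 0 and 0 under actinomycin D and 0 and 0 in DMSO. RNU2-63P, annotated as a U2 pseudogene, had 19 and 21 under AZ-5576, 0 and 0 under actinomycin D and 20 and 16 in DMSO. PFN1P2, a profilin pseudogene, had 57 and 48 under AZ-5576, 0 and 0 under actinomycin D and 2 and 1 in DMSO. In total RNA the same order held for PFN1P2, with 138 and 136 counts under AZ-5576, 2 and 0 under actinomycin D and 3 and 5 in DMSO. Mature spliceosomal RNAs carry no poly(A) tail, and near-identical copies exist for all of these genes, so which copy gave the reads is uncertain.

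The transcripts of RF00003 at chr1:146409903-146410062 on the plus strand and of RNU2-63P at chr2:88016354-88016547 on the minus strand are given because their label appeared in both AZ-5576 libraries and in neither actinomycin D library. Runs of at least 4 A are in capitals.
RF00003: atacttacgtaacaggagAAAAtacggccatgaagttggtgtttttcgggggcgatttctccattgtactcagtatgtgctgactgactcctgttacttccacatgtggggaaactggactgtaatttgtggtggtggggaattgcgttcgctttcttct
RNU2-63P: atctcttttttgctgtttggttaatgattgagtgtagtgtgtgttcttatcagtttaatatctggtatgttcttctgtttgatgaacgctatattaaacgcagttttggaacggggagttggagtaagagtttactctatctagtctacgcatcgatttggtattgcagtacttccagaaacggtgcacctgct

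Levels were also set against DMSO, without a test. In all, 31 of the 1606 nuclear genes called above actinomycin D had more label in both AZ-5576 libraries than in both DMSO libraries. They were 17 protein-coding genes, 6 long noncoding RNA genes, 3 processed pseudogenes, 2 RNA polymerase III genes, 2 small nuclear or nucleolar RNA genes and 1 other, and 9 of the 17 protein-coding genes were longer than 100 kb. Some had few labelled counts, such as LINC00641 with 8 and 6 under AZ-5576 and 0 and 4 in DMSO. Of the 31, 7 had 0 labelled counts in DMSO. In total RNA, which holds the labelled reads that chose them, 22 were called higher than under actinomycin D and 0 lower, beside 2.00% and 0.371% of all genes tested. Unlabelled counts of both AZ-5576 libraries lay above both actinomycin D libraries in 27 of the 31, beside 28.2% of all genes tested. They lay below both in 1, beside 9.69%. Here too unlabelled reads can be new RNA, so these counts are not independent of the choice by label. Examples chosen after their values were seen are GABRG3, a GABA receptor subunit gene, with 59 and 44 labelled counts under AZ-5576, 0 and 0 under actinomycin D and 24 and 33 in DMSO, and LGALS9, the galectin-9 gene, with 25 and 35 under AZ-5576, 0 and 0 under actinomycin D and 5 and 7 in DMSO. DCN, a connective tissue proteoglycan, had 9 and 11 labelled counts under AZ-5576 and 0 in each actinomycin D and DMSO library. Its total counts were 25 and 15 under AZ-5576, 5 and 1 under actinomycin D and 1 and 1 in DMSO, and did not pass the test.

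Gene lists of nuclear pathways kept little label, and few of their members were called in total RNA. Of 75 cytosolic ribosomal protein genes, 68 were higher in labelled RNA, at 8.59% of DMSO under AZ-5576 and 0.882% under actinomycin D, beside 20.5% of all tested genes called. RPL38 gave 305 of the 408 actinomycin D counts of the list, and without it the list stood at 0.226% of DMSO under actinomycin D. RPL32 had 87 and 118 labelled counts under AZ-5576, 1 and 0 under actinomycin D and 757 and 752 in DMSO, and RPS16 had 82 and 101 under AZ-5576, 0 and 0 under actinomycin D and 622 and 649 in DMSO. In total RNA the 77 ribosomal protein genes had a median log2 difference of 0.03, beside 0.08 over all genes. Of them 1 was called higher and 0 lower, near the 2.00% and 0.371% of all genes tested. The 1 was RPL17, whose call was lost without AZ-5576 replicate 1 (edgeR adjusted p = 0.093), actinomycin D replicate 1 (adjusted p = 0.052) or replicate 2 (adjusted p = 0.13).

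Among other lists, 22 of 72 nuclear genes of the respiratory chain, 12 of 17 chaperone genes, 15 of 18 small nucleolar RNA hosts and 11 of 34 ribosome biogenesis genes were higher in labelled RNA. These are 30.6%, 70.6%, 83.3% and 32.4% of the members tested, beside 20.5% of all tested genes. Their summed label under AZ-5576 was 4.00%, 4.81%, 6.06% and 5.05% of DMSO in that order. HSP90AB1, the constitutive cytosolic Hsp90, had 87 and 75 labelled counts under AZ-5576, 0 and 1 under actinomycin D and 705 and 690 in DMSO. The nuclear respiratory chain thus stood at 4.00% of its DMSO label under AZ-5576, while mitochondrial genes without their copies stood at 77.4%. None of 77 respiratory chain genes and none of 18 chaperone genes was called in total RNA. Over all genes tested 2.00% were higher and 0.371% lower, so lists of this size may hold no call at that share. Of 29 pause release and 7SK particle genes, 5 were higher in labelled RNA (17.2%), a share near that of all tested genes, among them BRD2, a BET bromodomain protein, with 36 and 46 counts under AZ-5576, 0 and 0 under actinomycin D and 807 and 754 in DMSO. HEXIM1, the inhibitor of P-TEFb in the 7SK particle, had 0 and 0 under AZ-5576, 0 and 0 under actinomycin D and 47 and 90 in DMSO. Of 5 interferon genes tested 0 were called.

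Erythroid and megakaryocytic transcription factors stood at 10.6% of their DMSO label under AZ-5576, with 14 of 24 higher in labelled RNA (58.3%, beside 20.5% of all tested genes). GATA2, a factor of blood progenitors, had 80 and 109 labelled counts under AZ-5576, 0 and 0 under actinomycin D and 347 and 339 in DMSO, at least 67.9-fold above actinomycin D. In total RNA GATA2 had 2556 and 3015 counts under AZ-5576, 2208 and 2151 under actinomycin D and 3669 and 3855 in DMSO, a log2 difference of 0.46 (SE 0.10; edgeR adjusted p = 0.0083), and the call was lost without AZ-5576 replicate 2 (adjusted p = 0.14) or actinomycin D replicate 2 (adjusted p = 0.18). RUNX1 was the other member called, with 321 and 462 total counts under AZ-5576, 226 and 274 under actinomycin D and 383 and 440 in DMSO, a log2 difference of 0.75 (SE 0.16) that was not called without AZ-5576 replicate 2 (adjusted p = 0.23) or actinomycin D replicate 1 (adjusted p = 0.12). GATA1, the master factor of red cells, had 1 and 3 labelled counts under AZ-5576, 0 and 0 under actinomycin D and 51 and 34 in DMSO, and did not pass the test. In the list of globin, heme and red cell genes 10 of 20 were higher in labelled RNA (50.0%). None of its 35 genes tested in total RNA was called, near the 2.00% higher and 0.371% lower over all genes.

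Immediate early and short-lived mRNAs had lost most of their pool under either drug. In labelled RNA 16 of 41 were higher under AZ-5576 (39.0%, beside 20.5% of all tested genes), at 5.00% of DMSO. The median member stood at 23.8% of its DMSO total RNA under AZ-5576 and at 26.8% under actinomycin D, and 2 of 46 were higher and 5 lower, beside 2.00% higher and 0.371% lower over all genes tested. EGR1, an immediate early zinc finger factor, rose: it had 105 and 113 total counts under AZ-5576, 13 and 51 under actinomycin D and 373 and 281 in DMSO (log2 difference 1.88, SE 0.32; edgeR adjusted p = 0.0016). Its label was 30 and 18 counts under AZ-5576, 0 and 0 under actinomycin D and 182 and 112 in DMSO. MYC had 7 and 9 labelled counts under AZ-5576, 0 and 0 under actinomycin D and 109 and 108 in DMSO, and its total counts of 155 and 176 under AZ-5576, 153 and 128 under actinomycin D and 481 and 402 in DMSO did not pass the test between the drugs (log2 difference 0.34, SE 0.20; edgeR adjusted p = 0.60). MCL1, the short-lived BCL2 family survival protein, had 936 and 1247 total counts under AZ-5576, 1106 and 1240 under actinomycin D and 2287 and 2425 in DMSO (log2 difference -0.00, SE 0.11). JUN had 45 and 72 total counts under AZ-5576, 45 and 86 under actinomycin D and 273 and 288 in DMSO, and was not called.

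Over all genes, total RNA was higher under AZ-5576 for 292 genes and lower for 54. The 292 were 164 protein-coding nuclear genes, 44 long noncoding RNA genes, 37 processed pseudogenes, 27 mitochondrial genes or copies and others. In 246 of the 292 both actinomycin D libraries lay below both DMSO libraries. The AZ-5576 level lay above both DMSO libraries in 134 of the 292 and below both in 73. The protein-coding ones had a median length of 127 kb, against 8.59 kb for the lower ones and 30.5 kb for all tested. With TMM library sizes the counts were 186 higher and 76 lower, so the higher share of calls was 71.0% in place of 84.4%. Without actinomycin D replicate 1 there were 120 higher and 38 lower, without replicate 2 162 and 18, without AZ-5576 replicate 1 185 and 21, and without replicate 2 133 and 33. The libraries of the 2 drugs did not overlap in 4226 genes with AZ-5576 above (29.0%) and in 1374 with AZ-5576 below (9.43%). At an unadjusted p under 0.05 there were 1291 higher and 294 lower.

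Among genes that averaged 50 or more total counts over the 4 libraries, and outside mitochondrial genes and pseudogenes, the largest rises after RF00019 included LINC01355, a long intergenic noncoding RNA, with 77 and 84 total counts under AZ-5576, 25 and 18 under actinomycin D and 37 and 39 in DMSO (log2 difference 2.00, SE 0.35; edgeR adjusted p = 0.00024). HTR1F, a serotonin receptor gene, had 112 and 105 under AZ-5576, 39 and 20 under actinomycin D and 102 and 73 in DMSO, and 15 and 24 labelled counts under AZ-5576, 0 and 0 under actinomycin D and 28 and 14 in DMSO. Both had AZ-5576 libraries clear of the actinomycin D libraries, and for LINC01355 also clear of DMSO. HIVEP1, a zinc finger factor, had 79 and 79 total counts under AZ-5576, 17 and 25 under actinomycin D and 54 and 51 in DMSO. KCNQ1OT1, the long antisense RNA of the imprinted KCNQ1 locus, had 237 and 270 under AZ-5576, 67 and 132 under actinomycin D and 286 and 320 in DMSO (log2 difference 1.46, SE 0.20). Its label of 26 and 30 counts under AZ-5576, 0 and 0 under actinomycin D and 95 and 115 in DMSO was 25.4% of DMSO. Without stated strand use, its reads and those of KCNQ1 on the other strand cannot be told apart.

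The genes lower in total RNA were short, and most were below DMSO under AZ-5576. In 37 of the 54 both AZ-5576 libraries lay below both DMSO libraries, and in 18 the actinomycin D libraries lay above both DMSO libraries. MIR17HG, the host transcript of a microRNA cluster that is driven by MYC, had 33 and 63 total counts under AZ-5576, 110 and 140 under actinomycin D and 800 and 838 in DMSO (log2 difference -1.27, SE 0.21; edgeR adjusted p = 8.7e-05). ZFP36L2, an mRNA decay factor that binds AU-rich elements, had 130 and 146 under AZ-5576, 339 and 379 under actinomycin D and 816 and 781 in DMSO (log2 difference -1.27, SE 0.17; edgeR adjusted p = 1.3e-06). Both thus had least RNA under AZ-5576, an intermediate level under actinomycin D and most in DMSO. Label was at or near 0 counts under both drugs and cannot show this order. MIR17HG had 3 and 3 labelled counts under AZ-5576, 0 and 0 under actinomycin D and 464 and 477 in DMSO. ZFP36L2 had 0 and 4 under AZ-5576, 0 and 0 under actinomycin D and 260 and 268 in DMSO. Of 43 lower genes tested in labelled RNA, 18 were higher there and 0 lower, beside 20.5% and 0.00% of all tested genes. A lower call was hardly possible, since 7419 of 7996 tested genes had 0 labelled counts in both actinomycin D libraries.

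BRF2, a subunit of the RNA polymerase III factor TFIIIB, had 68 and 51 total counts under AZ-5576, 168 and 171 under actinomycin D and 304 and 322 in DMSO (log2 difference -1.39, SE 0.22). BTG3, an antiproliferative BTG/TOB family gene, had 126 and 188 under AZ-5576, 335 and 341 under actinomycin D and 325 and 415 in DMSO (log2 difference -1.01, SE 0.18). Both of these were lower in each AZ-5576 library than in each actinomycin D library, and BTG3 was near its DMSO level under actinomycin D. EFNA1, an ephrin ligand gene, had 21 and 32 under AZ-5576, 80 and 78 under actinomycin D and 93 and 95 in DMSO, and was not called without AZ-5576 replicate 1 (edgeR adjusted p = 0.13) or actinomycin D replicate 1 (adjusted p = 0.082). ID2, an inhibitor of basic helix-loop-helix factors, had 141 and 228 under AZ-5576, 319 and 380 under actinomycin D and 855 and 817 in DMSO, and was not called without AZ-5576 replicate 1 (adjusted p = 0.14) or actinomycin D replicate 2 (adjusted p = 0.056). BTG2, a p53 target of the same family as BTG3, had 1 and 2 under AZ-5576, 17 and 35 under actinomycin D and 36 and 28 in DMSO, and was not called without AZ-5576 replicate 1 (adjusted p = 0.059) or actinomycin D replicate 2 (adjusted p = 0.092). These 3 calls were therefore less secure, although the libraries of the drugs did not overlap. SNHG12, a small nucleolar RNA host, had 350 and 390 under AZ-5576, 546 and 680 under actinomycin D and 1703 and 1798 in DMSO, and was not called without actinomycin D replicate 2 (adjusted p = 0.061). SNHG19, another host, moved the other way, with 708 and 811 under AZ-5576, 431 and 603 under actinomycin D and 1180 and 1321 in DMSO, and was not called without actinomycin D replicate 1 (adjusted p = 0.10).

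**Figure D5:**
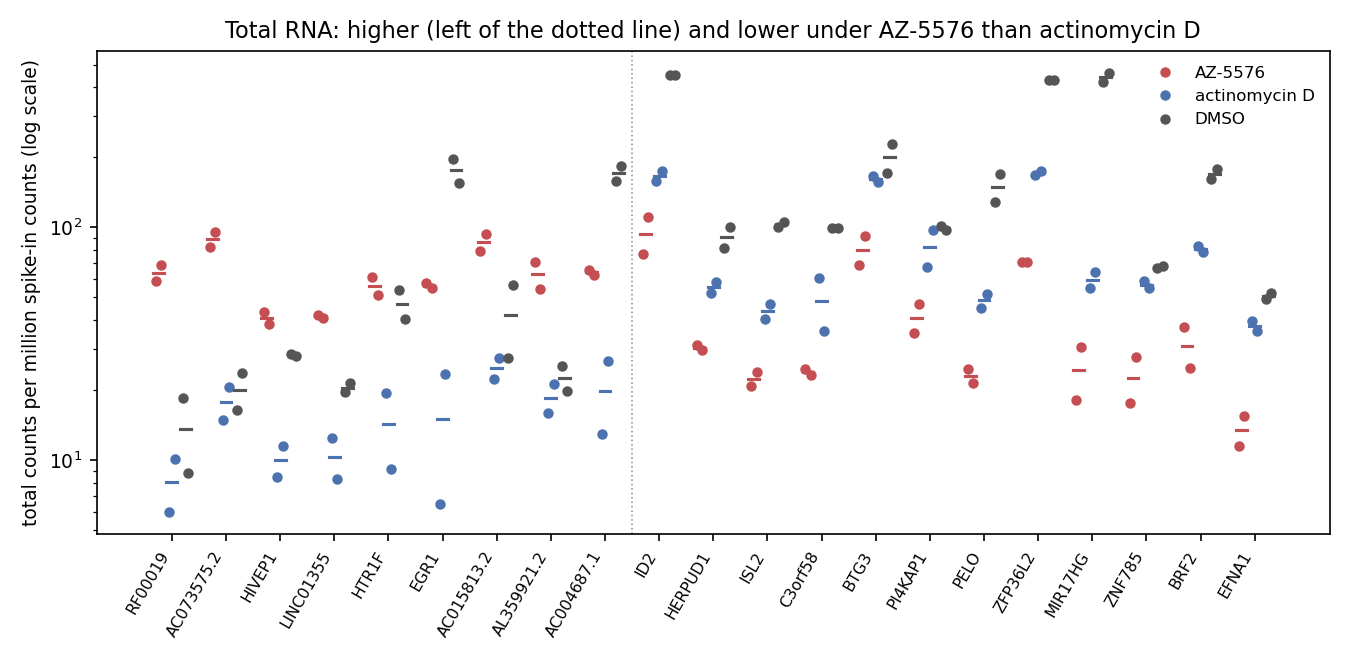
Total counts scaled to spike-in counts (log scale) of the named nuclear genes with the largest rises, left of the dotted line, and falls, right of it, as points per library with the mean of 2 as a bar. On the left the actinomycin D points lie below those of AZ-5576 with no overlap, though in RF00019 they overlap DMSO. On the right the AZ-5576 points lie lowest in each gene.

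Over the pool as a whole, the fall in total RNA went with turnover under both drugs. Genes whose DMSO libraries averaged 50 or more total counts were ranked by labelled share in DMSO and cut into 5 bins of 2075 genes. In the bin of lowest share the median gene stood at 102% of DMSO under AZ-5576 and 97.2% under actinomycin D, and in the bin of highest share at 67.6% under AZ-5576 and 62.4% under actinomycin D. The bins and the percentages share the DMSO libraries. The median log2 difference between the drugs ran only from 0.06 to 0.09 over the bins, while the calls numbered 15, 11, 12, 44 and 104 higher and 6, 3, 1, 2 and 33 lower from the lowest to the highest bin. Red cell markers of K562 were present in all 6 libraries, with 26080 to 33364 total counts of HBG1 and 2659 to 3169 of GATA1, and MS4A1, a B cell marker, and MPO, a granulocyte marker, had 0 counts in each. Of other lineage markers, EPCAM (an epithelial adhesion protein) had 1003 to 1116 total counts over the 6 libraries, CD3D (a T cell receptor subunit) had 434 to 656 and LYZ (lysozyme) had 235 to 329, with overlapping ranges in the 3 groups, while CD3E had 1 to 7.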

How the data were processed

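Counts were taken as deposited: 3 tables of raw, unnormalised whole-number counts by gene hold the human reads, the human reads with T-to-C conversions, and the Drosophila reads of the spike-in. The submitters' processing notes name bcl2fastq 2.17.1.14 and Trim Galore 0.6.5 along with bedtools, and the builds hg38 and dm6. Which aligner, conversion caller and counting rules were used is not given in the sources used here. Names, types and lengths came from GENCODE release 29, which held 55838 of 59204 identifiers.

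From these counts, edgeR 4.0.16 (robust quasi-likelihood test, two-sided, R 4.3.3) was fitted over all 10 libraries, those with JQ1 and A-485 included. Spike-in totals served as library sizes, genes needed 10 or more counts in 2 or more libraries, and 5 residual degrees of freedom were left. The labelled share was tested as labelled against unlabelled counts. Between libraries of a group the biological coefficient of variation was 24.8% for labelled counts, 10.9% for total counts and 17.9% for the labelled share. With 2 libraries against 2, no permutation can give a two-sided p below 0.33, so library-wide values carry an SD and no p. A fold against 0 counts uses 3 counts over the group as its limit, and limits and intervals cover counting error only. Replicate libraries differed by more than sampling noise (chi-square per degree of freedom 4.38 under AZ-5576, 6.29 under actinomycin D and 5.16 in DMSO) and were counted separately. The fits were tested on simulated data.

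The comparison, the gene lists and the naming rule were chosen with earlier results of these data known. The rule named the 10 called nuclear genes with the highest AZ-5576 label, the 12 that kept most of their DMSO label, the 10 with most actinomycin D label, the 12 largest rises and the 12 largest falls in total RNA, all mitochondrially encoded genes, up to 4 called members per list and a panel. Not all of these are described. Alternatives were DESeq2, TMM, other filters, the 4 libraries alone, a replicate block and leaving out each library. The sequence of 1 transcript is not reported here.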

Additional observations from a re-analysis of the deposited data

How the results depend on the processing

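The direction of the counts held under each alternative run, and their size did not. In labelled RNA, 1639 higher genes became 361 with TMM (and 13 lower in place of 0), 579 of 611 tested at a mean of at least 5 counts, 408 of 418 with the 4 libraries alone, and 877 to 1597 on leaving out 1 library; the last filters test fewer genes. In total RNA, 292 higher became 186 with TMM and 120 to 185 on leaving out 1 library, and 54 lower became 18 to 38. For the share, 1321 higher became 565 of 611, 402 of 418 and 519 to 1232. Genes passed the filters that left 611 and 418 genes mainly through their AZ-5576 counts, so the high shares of calls there follow from the filter. The replicate block gave 1516 higher in labelled RNA, 406 higher and 71 lower in total RNA and 1292 higher in the share. Whether the replicate numbers pair the libraries is not settled: deviations of same-numbered libraries correlated at 0.233 in total and 0.00186 in labelled RNA, over only 2 numbers. The labelled share with the actinomycin D share subtracted was 0.347%.

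Per total count in place of spike-in count, mitochondrial label under AZ-5576 was 76.0% of DMSO, and under actinomycin D nuclear label was 0.321% and protein-coding label 0.190%. With copies counted as nuclear, mitochondrial label was 77.4% under AZ-5576 and 0.502% under actinomycin D, and nuclear label under AZ-5576 was 9.35%. The median kept in the shortest of 5 bins (1.30%) was 2.94% at 100 or more counts, 1.71% over all gene types, 4.51% as a sum and 0% to 0.459% on leaving out 1 library. In the longest bin (5.15%) it was 3.61% at 100 or more counts, close to the 2.94% of the shortest, 13.4% as a sum, 3.85% to 4.37% on leaving out 1 library and 23.2% in the longest of 6 steps, added after the data were seen. Under TMM the labelled differences of RPL11P3 (-1.75), RPL31P49 (-1.97) and SNHG6 (-0.82) reversed, and without AZ-5576 replicate 1 that of the GRSF1 share (-0.16, against 6.20 without AZ-5576 replicate 2); apart from the scale shift of TMM the cause was not tested. For the named genes, 87 of the recomputed labelled differences and 84 of the total ones lost their call. Depth limits labelled RNA, since 7419 of 7996 tested genes had 0 actinomycin D counts.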
